A study of Mus musculus with 12 samples.

Results

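The lung and the heart of the same wild-type (WT) mice were compared across all genes, using the 3 lung and 3 heart libraries of WT animals, 6 of the 12 samples of the study. The libraries were taken by the tissue and genotype in their labels, without regard to any expression value, and the lung and heart of 1 mouse were paired through the mouse identifier in their titles. The animals were males of the 129S6/SvEvTac strain, 9 to 13 weeks old, and carried the unmodified Adam19 gene. The other 6 libraries came from lung and heart of 3 Adam19 knockout (KO) mice of the same strain and sex, in which a tdTomato reporter replaced exons 6 and 7 of Adam19, the gene of a membrane-bound protease. They are used here only to look at the same organ contrast in other animals. Each organ was frozen whole and sequenced as total RNA, so a library holds every cell type of the organ, and a lower value may stand for fewer cells of a type or for less RNA per cell, which cannot be told apart.

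The lung exchanges gas across alveoli lined by flat alveolar type 1 cells and by cuboidal type 2 cells, which make surfactant and can replace type 1 cells, while its airways are lined by secretory and ciliated cells. The heart pumps through cardiomyocytes, in which thick filaments of myosin slide along thin filaments of actin when calcium leaves the sarcoplasmic reticulum. Cardiomyocytes are packed with mitochondria and draw most of their energy from fatty acids, and in mice heart muscle also reaches into the wall of the pulmonary veins.

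The libraries held between 18392292 and 33906290 estimated counts. The 7SL RNAs, a small structural RNA family, took 14.2% to 37.9% of the counts in the lungs and 3.07% to 5.69% in the hearts, and mitochondrial genes took 1.30% to 1.40% against 11.1% to 22.1%. Values within an organ were close, with a Pearson r across genes of at least 0.950 between lungs and 0.962 between hearts, against 0.664 to 0.695 between organs. Some libraries stood apart. The lung of mouse 2 held skeletal muscle RNA, with Myh8, a developmental myosin, at 1.51, 10.12 and 1.91 in the lungs of mice 1, 2 and 3. The heart of mouse 3 was lower than the other hearts in some atrial genes. Myl7, the atrial regulatory light chain, was at 14.78, 14.49 and 12.47 in the hearts, and Nppa, the atrial natriuretic peptide, at 15.35, 15.40 and 14.03. Bmp10, another atrial gene, differed little between the hearts, as given below. The lung and the heart of mouse 3 both held more haemoglobin RNA than the other libraries of their organ, with Hbb-bs at 14.19, 14.31 and 15.95 in the lungs and 13.42, 12.77 and 15 in the hearts. Mice 1 and 2 share an identifier prefix that mouse 3 lacks, and what the prefix marks is not given in the sources used here.

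Of the 16636 genes tested, 4902 were higher in the lung (29.5%) and 3393 were higher in the heart (20.4%). A gene was called when its adjusted p (limma with mouse as a block, Benjamini-Hochberg) was under 0.05, its fold at least 1.5 and its mean in 1 of the organs at least 6, on the deposited log2 scale of estimated counts. Values below are on that scale unless a sentence says otherwise, are listed in the order of mice 1, 2 and 3, and every difference is lung minus heart. In 8137 of the 8295 called genes the 3 lungs and the 3 hearts did not overlap. With 3 libraries per organ this largely follows from the call, so the count is no separate support. Differences of at least 16-fold were found for 821 genes in the lung and 511 in the heart, and of at least 256-fold for 86 and 27. Many lung genes were near absent from the heart. Among the 14057 tested genes that reached the detection filter in at least 2 libraries of both organs, the counts at 16-fold were 262 in the lung and 339 in the heart. Of the genes called for the lung, 99 were at 0 in all 3 hearts, and of those called for the heart, 17 were at 0 in all 3 lungs. By biotype, 4588 lung and 3158 heart calls fell among 14516 protein-coding genes, and 172 and 165 among 1197 long non-coding RNAs. The balance between organs moved with the scaling. The lung took 59.1% of calls as deposited, 73.7% when libraries were set to the same sum, 49.7% with median-of-ratios scaling and 22.2% with upper-quartile scaling, which moved the lung-minus-heart difference by 0.42, -0.23 and -1.01. The median over all tested genes was 0.30 as deposited. Without mouse 3, within the shared prefix, 4935 genes were called for the lung and 3654 for the heart.

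**Figure D1:**
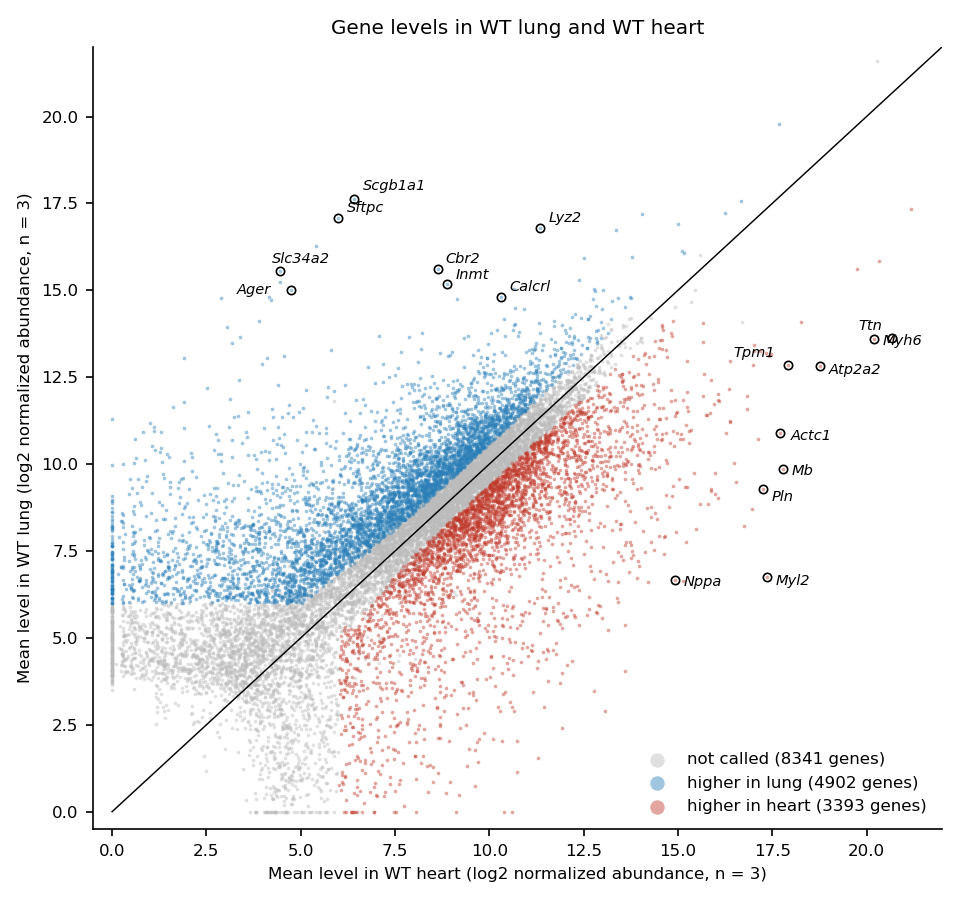
Mean deposited log2 value in the 3 WT hearts (x axis) against the 3 WT lungs (y axis), 1 point for each of the 16636 tested genes, coloured by call. Genes called for the lung (4902) lie above the diagonal and genes called for the heart (3393) below it, and the named abundant genes of each organ lie far from it.

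The 2 transcript pools were built differently. Measured per transcript length within the protein-coding pool, 386 to 497 genes made up 50% of the pool in a lung and 57 to 124 in a heart, so the heart pool was the more concentrated in each of the 3 mice. The 10 leading genes held 14.7% to 17.6% in the lungs and 24.3% to 33.9% in the hearts. In the lung the leading gene per length was Scgb1a1, the main secreted protein of club cells, with 6.47% ± 2.40 of the pool (SD, n = 3), followed by surfactant gene Sftpc with 2.54% ± 0.119. In the heart it was mt-Co1, a mitochondrially encoded subunit of cytochrome c oxidase, and the leading nuclear genes were Myh6, the fast cardiac myosin heavy chain, Mb, the oxygen-binding myoglobin, and Myl2, the ventricular regulatory light chain. The shares depend on annotated lengths and on each gene's share of the counts, not on scaling between libraries.

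Epithelial markers were taken first, in lists chosen with earlier results of these data known. Many members passed the detection filter through the lungs, with fewer than 2 hearts reaching it. Their counts are therefore a description and no test of the lung label. Of 75 tested genes in 5 epithelial lists, 74 were higher in the lung, beside 29.5% of all tested genes. The median difference was 7.27 beside 0.30 over all tested genes. The exception was Dnai1, a dynein chain of cilia, at 5.76, 5.81 and 4.88 in the lungs and 4.63, 4.62 and 4.51 in the hearts, a difference of 0.89 (adjusted p = 0.0793). Sftpc, the surfactant protein specific to type 2 cells (ENSMUSG00000022097.5, chr14:70758389-70761524, minus strand in GRCm39), was at 17.02, 16.94 and 17.28 in the lungs and 5.51, 4.78 and 7.71 in the hearts. All 3 lungs were far above all 3 hearts, and the heart of mouse 3 was the highest of the hearts. The difference was 11.08 (standard error 0.47, adjusted p = 1.73e-05). The other surfactant genes followed the same pattern, with 10.86 (standard error 0.57, adjusted p = 3.31e-05) for Sftpa1, 10.78 (standard error 0.83, adjusted p = 1.16e-04) for Sftpb and 10.89 (standard error 0.43, adjusted p = 1.61e-05) for Sftpd. Slc34a2, which carries phosphate into type 2 cells, differed by 11.10 (standard error 0.67, adjusted p = 4.97e-05), and Cxcl15, a chemokine of lung epithelium, by 11.91 (adjusted p = 5.23e-05). The smallest differences of this list were those of Etv5, a transcription factor, at 3.28, of the surfactant lipid transporter Abca3 at 3.64 and of the protease Ctsh at 3.64. All 14 members of the type 2 list were called for the lung, whichever mouse was left out, and 10 of them were detected in at least 2 libraries of both organs. Together they held 4.15% ± 0.0898 in the lungs and 0.00854% ± 0.00162 in the hearts of the protein-coding pool per length.

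The promoters of a pair of surfactant genes are shown because these genes were among the most abundant and most lung-restricted transcripts. They are 250 bases upstream of the RefSeq start on GRCm38.p6, plus strand, 5′ to 3′, with matches to CTCAAG, a core bound by NKX2-1, and in Sftpa1 also the TATA box TATAAA, in capitals. They span chr14:41131538-41131787 for Sftpa1 and chr6:72304360-72304609 for Sftpb, and they were picked after the matches were seen.
Sftpa1: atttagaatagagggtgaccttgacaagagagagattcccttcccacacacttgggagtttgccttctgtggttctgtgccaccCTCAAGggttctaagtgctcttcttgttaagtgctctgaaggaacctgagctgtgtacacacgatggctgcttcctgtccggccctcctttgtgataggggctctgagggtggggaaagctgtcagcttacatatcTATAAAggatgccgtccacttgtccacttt
Sftpb: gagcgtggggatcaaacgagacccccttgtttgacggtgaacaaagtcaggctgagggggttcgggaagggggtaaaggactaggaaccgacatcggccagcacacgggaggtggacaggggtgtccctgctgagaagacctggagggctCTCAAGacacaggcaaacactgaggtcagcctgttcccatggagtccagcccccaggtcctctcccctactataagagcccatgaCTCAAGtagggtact
In Sftpa1 the TATA box began 30 bases and the CTCAAG 166 bases before the start, and in Sftpb the CTCAAG matches began 100 and 15 bases before it. CTCAAG is short and common: it was found in 14.4% of the 11971 promoters of tested genes, in 15.0% of the 599 promoters of genes at least 16-fold higher in the lung and in 15.4% of the 350 promoters of genes at least 16-fold higher in the heart, counting either strand of the 300 bases from 250 before to 50 after the start. The shares differed more for other words, as described below with the heart promoters.

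Alveolar type 1 genes were all called for the lung, 14 of 14, with a median of 6.84, and 9 of them were detected in both organs. Ager, the receptor for advanced glycation end products on type 1 cells, was at 15.12, 15.08 and 14.83 in the lungs and 4.17, 3.68 and 6.36 in the hearts. No heart came near a lung, and the difference was 10.27 (standard error 0.54, adjusted p = 3.28e-05). Aqp5, a water channel, differed by 9.87 (adjusted p = 1.61e-05) and Cldn18, a tight junction protein, by 11.15 (adjusted p = 9.00e-05). Akap5, a kinase anchor, was detected in both organs and differed by 5.78 (adjusted p = 1.02e-05). Hopx and Clic5, which cardiac and vascular cells also express, showed the smallest differences, 0.88 and 1.44.

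Airway genes were higher in the lung as well, with medians of 6.98 for the secretory list and 7.16 for the cilia list. Scgb1a1 (ENSMUSG00000024653.3, chr19:9061000-9065326, minus strand) was at 17.51, 18.12 and 17.28 in the lungs and 6.39, 4.54 and 8.32 in the hearts. The heart values spread widely, with the heart of mouse 3 the highest, yet all lungs lay above all hearts, and the difference was 11.22 (standard error 0.77, adjusted p = 7.76e-05). Cbr2, a carbonyl reductase of club cells, differed by 6.98 (standard error 0.25, adjusted p = 1.22e-05), and Cyp2f2, a cytochrome P450 of club cells, by 10.52 (adjusted p = 3.95e-05). The secretory list had 11 tested members of 13, all 11 higher in the lung, but only 4 were detected in both organs. In the heart of mouse 3, Sftpc and Scgb1a1 stood at 7.71 and 8.32, above the other hearts. The part of lung RNA in that heart library was not tested. In the motile cilia list 17 of 18 were called for the lung, though only 2 were detected in both organs. Foxj1, the master regulator of motile cilia, was at 9.45, 9.62 and 9.44 in the lungs and 0.85, 0 and 1.86 in the hearts, a difference of 8.60 (standard error 0.47, adjusted p = 3.66e-05). Sec14l3, a lipid-binding protein of ciliated cells, differed by 10.64 (standard error 0.20, adjusted p = 8.13e-06). Epithelial junction genes were called for the lung in 18 of 18 cases, 7 of them detected in both organs, with a median of 7.04. Cdh1, the epithelial cadherin, was at 12.24, 12.39 and 11.92 in the lungs and 2.23, 1.88 and 3.42 in the hearts, while Esrp1, an epithelial splicing regulator, was at 0 in every heart and at least 107-fold higher in the lung, taking 3 counts per heart library as the floor.

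Transcription factors of the lung followed with 16 of 19 called for the lung, beside 29.5% of all tested genes, and a median of 5.14. Only 10 of the 19 were detected in at least 2 libraries of both organs, 7 of them called for the lung. The other lung calls passed the filter through the lungs, so the count is a description. With detection asked of all 6 libraries the median was 2.30. Nkx2-1, which directs lung epithelial identity, was at 9.99, 9.69 and 9.04 in the lungs and 1.45, 0 and 0 in the hearts, and the difference was 9.09 (standard error 0.39, adjusted p = 1.84e-05). Foxa2, a partner factor in endoderm, was at 0 in all hearts and was at least 123-fold higher in the lung. Foxf1 and Tbx4, factors of lung mesenchyme and vessels, differed by 8.05 (adjusted p = 1.48e-05) and 8.25 (adjusted p = 1.03e-04). Members of this list were also called for the heart. Sox9, a factor of distal lung progenitors and of cartilage and valves, differed by -2.83 (standard error 0.49, adjusted p = 0.00307), and Gata6, which both organs use in development, by -1.27 (standard error 0.20, adjusted p = 0.00222). Foxp2 was not called, at 0.56 (adjusted p = 0.0699).

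**Figure D2:**
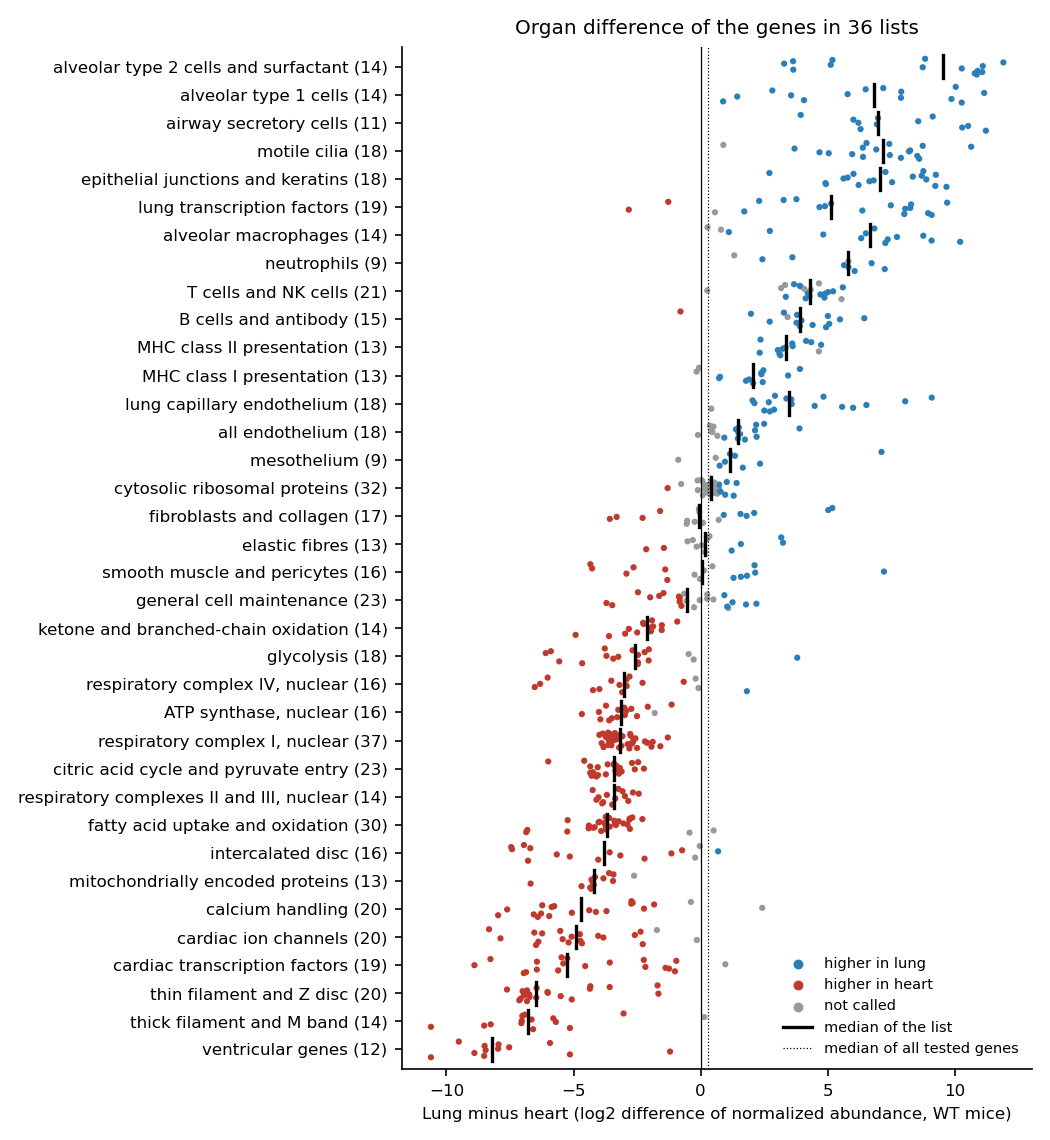
Members of 36 gene lists, each point a tested gene, with its lung-minus-heart log2 difference on the x axis and the list's median marked. Epithelial lists lie on the lung side with medians from 6.84 upward, sarcomere and mitochondrial lists lie on the heart side, and stromal lists straddle 0.

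Contractile genes were taken next, also in lists chosen with earlier results of these data known, so their counts do not test the heart label. Of 34 tested sarcomere genes, 33 were higher in the heart, beside 20.4% of all tested genes. The median was -6.62, and Myom3 was the exception at 0.14 (adjusted p = 0.708). Myh6 (ENSMUSG00000040752.17, chr14:55179367-55205887, minus strand) was at 13.36, 13.20 and 14.24 in the lungs and 20.05, 20.09 and 20.44 in the hearts. The hearts were close together and all above the lungs, and the difference was -6.59 (standard error 0.30, adjusted p = 2.15e-05). Ttn, the giant spring protein that spans the sarcomere, differed by -7.05 (standard error 0.30, adjusted p = 1.78e-05), and Mybpc3, a myosin-binding protein that tunes contraction, by -8.26 (standard error 0.20, adjusted p = 8.13e-06). In the thick filament and M band list 13 of 14 were called, and per length the list held 0.0627% ± 0.000384 in the lungs and 5.68% ± 0.880 in the hearts of the protein-coding pool. The thin filament and Z disc list had 20 of 20 called for the heart, also without any 1 mouse, and held 0.200% ± 0.00586 in the lungs and 4.69% ± 0.629 in the hearts. Actc1, cardiac actin, was at 11.06, 10.89 and 10.70 in the lungs and 17.53, 17.71 and 17.90 in the hearts, and its difference was -6.83 (standard error 0.22, adjusted p = 1.02e-05). Tpm1, a tropomyosin that smooth muscle also uses, differed by -5.07 (standard error 0.23, adjusted p = 2.07e-05). Acta1, which skeletal muscle also makes, was at 3.59, 10.27 and 3.30 in the lungs and 12.55, 12.87 and 13.14 in the hearts, with the lung of mouse 2, the one with skeletal muscle genes, the highest of the lungs. It differed by -7.13 (standard error 1.31, adjusted p = 0.00388) with all mice and by -9.40 without mouse 2, and Myot, a Z disc protein of both muscles, by -7.62 and -9.19, each called for the heart both ways.

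Promoters of heart genes are shown for the thick filament genes Mybpc3 (chr2:91117894-91118143) and Myl3 (chr9:110763428-110763677), the ventricular essential light chain, again 250 bases upstream of the RefSeq start on GRCm38.p6, plus strand, picked after the matches were seen. Capitals mark the MEF2 pattern CTANNNNTAG in Mybpc3, and in Myl3 the TEAD core CATTCC (also as GGAATG on the other strand) and CTCAAG, there on the other strand as CTTGAG.
Mybpc3: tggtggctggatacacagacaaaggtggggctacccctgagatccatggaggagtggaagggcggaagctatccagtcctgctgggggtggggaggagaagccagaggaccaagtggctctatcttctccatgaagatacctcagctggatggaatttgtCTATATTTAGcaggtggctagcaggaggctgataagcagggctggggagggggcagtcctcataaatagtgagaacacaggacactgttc
Myl3: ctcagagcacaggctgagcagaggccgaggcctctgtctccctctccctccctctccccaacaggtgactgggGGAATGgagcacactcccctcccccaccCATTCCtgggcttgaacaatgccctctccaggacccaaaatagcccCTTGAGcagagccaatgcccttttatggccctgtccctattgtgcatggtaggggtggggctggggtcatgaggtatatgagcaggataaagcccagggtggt
The MEF2 match began 90 bases before the start of Mybpc3. In Myl3 the TEAD matches began 177 and 149 bases and the CTTGAG 103 bases before the start. The MEF2 pattern was found in 10.3% of the 350 promoters of genes at least 16-fold higher in the heart, 3.17% of the 599 of the lung and 3.12% of all 11971, on either strand. It can share bases with TATAAA, which it did in 10 of the 36 heart promoters that held it and in 26 of all promoters. The core of a GATA factor site, AGATAA, was found in 15.7%, 9.52% and 6.87% of the same promoters, in that order, and CATTCC in 17.7%, 14.2% and 12.3%. TATAAA was in 16.9% of heart, 15.2% of lung and 7.99% of all promoters, whereas GGGCGG, the GC box common in widely expressed genes, was in 36%, 39.7% and 61.1%. CAGGTG, an E box that zinc finger repressors of epithelial genes can bind, was in 23.7% of heart, 33.2% of lung and 18.1% of all promoters. GGAAGT, an ETS core, was in 16.9%, 27.2% and 27.8%, and TGTTTAC, a forkhead core, in 3.14%, 5.01% and 2.66%. These are word counts in fixed windows and no measure of binding.

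Atrial and ventricular genes did not differ alike. The ventricular list was called for the heart in 12 of 12 cases, with a median of -8.21, whereas the atrial list had 8 heart calls among 12 tested, a median of -2.57 and 1 lung call, the vein and atrial factor Nr2f2 at 1.97 (adjusted p = 6.43e-04). Among all tested genes 20.4% were called for the heart. In both organs, 8 ventricular and 11 atrial genes were detected in at least 2 libraries, with 8 and 7 heart calls. The other ventricular genes passed the filter through the hearts, so the counts are a description. Myl2 (ENSMUSG00000013936.13, chr5:122238848-122251545, plus strand) was at 6.56, 7.64 and 6.10 in the lungs and 17.52, 17.12 and 17.48 in the hearts, a difference of -10.61 (standard error 0.36, adjusted p = 1.14e-05). Its atrial counterpart Myl7 was at 11.63, 10.77 and 12.15 in the lungs and 14.78, 14.49 and 12.47 in the hearts. The hearts of mice 1 and 2 lay above all the lungs, but the heart of mouse 3 was just above the highest lung, and the difference was -2.40 (standard error 0.61, adjusted p = 0.0152). Sln, which regulates the calcium pump in atria, was at 8.34, 8.12 and 9.44 in the lungs and 12.28, 12.65 and 9.83 in the hearts, a difference of -2.95 (standard error 0.75, adjusted p = 0.0146). Without mouse 3 the differences of Myl7 and Sln were -3.43 and -4.23, and 10 atrial genes were called for the heart. Nppa and Bmp10, secreted by atrial muscle, separated the organs fully. Nppa, the atrial natriuretic peptide, was at 7.19, 5.97 and 6.83 in the lungs and 15.35, 15.40 and 14.03 in the hearts, a difference of -8.26 (standard error 0.39, adjusted p = 2.46e-05). Bmp10, a growth factor, was at 0, 0 and 0 in the lungs and 10.64, 10.71 and 10.45 in the hearts, at least 485-fold higher in the heart by the floor of 3 counts per lung library. Nppb, the ventricular natriuretic peptide, differed by -9.51 (standard error 0.52, adjusted p = 3.63e-05), and Irx4, a ventricular transcription factor, by -8.90 (standard error 0.49, adjusted p = 3.79e-05).

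Among the myosin light chains, the atrial forms led in the lung and the ventricular forms in the heart. Per length, Myl7 made up 97.9%, 92.4% and 98.9% of the sum of Myl7 and Myl2 in the lungs, against 17.0%, 18.2% and 4.09% in the hearts. For the essential light chains, Myl4 made up 91.3%, 78.6% and 87.3% of the sum of Myl4 and Myl3 in the lungs and 15.3%, 18.4% and 3.75% in the hearts. The organs did not overlap in either ratio, and the lung of mouse 2 was the lowest of the lungs in both. Bmp10, the atrial growth factor, was at 0 in the same lungs. The source of the muscle RNA in the lung was not tested.

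**Figure D3:**
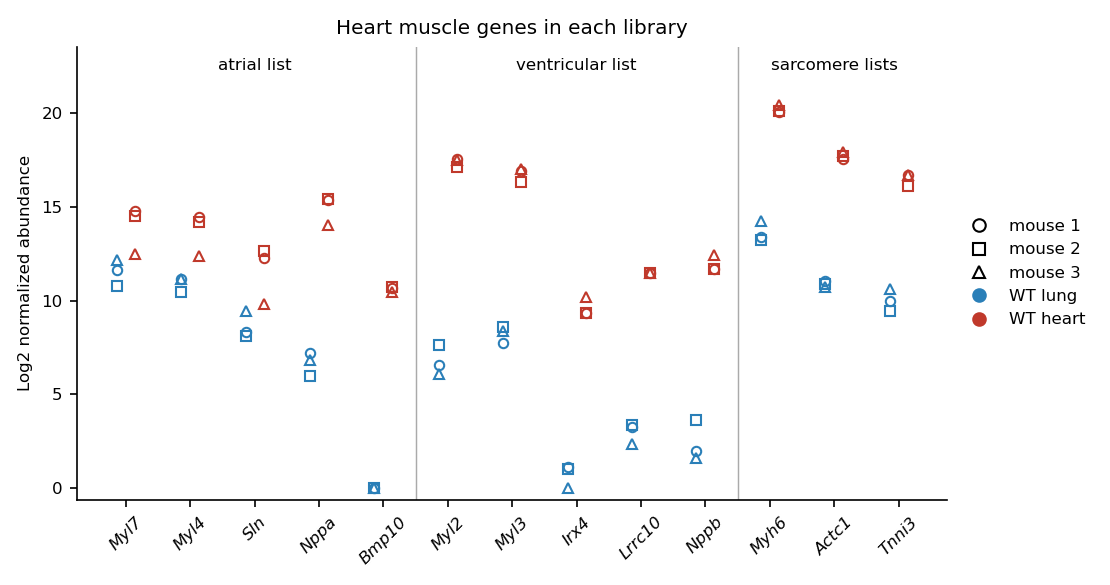
Deposited log2 values of 13 heart muscle genes in each WT library, with mice 1, 2 and 3 marked, for atrial genes, ventricular genes and genes of both chambers. Myl7 in the highest lung, at 12.15, lies just under the heart of mouse 3, at 12.47, while Myl2 lies far lower in every lung than in any heart.

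Calcium handling genes were called for the heart in 18 of 20 cases, beside 20.4% of all tested genes, with a median of -4.72. Atp2a2, the pump that refills the sarcoplasmic reticulum, was at 12.98, 12.83 and 12.66 in the lungs and 18.66, 18.86 and 18.81 in the hearts, a difference of -5.96 (standard error 0.24, adjusted p = 1.63e-05). Pln, which restrains that pump, differed by -7.97 (standard error 0.20, adjusted p = 8.13e-06), Hrc, a calcium-binding protein of the reticulum, by -7.61 (standard error 0.27, adjusted p = 1.22e-05), and Ryr2, the channel that releases the calcium, by -6.40 (standard error 0.18, adjusted p = 8.52e-06). Fkbp1b, a partner of that channel, at 2.42 (adjusted p = 0.00327), and Mcu, the mitochondrial calcium channel, at -0.38 (adjusted p = 0.112), were not called, the first because neither organ reached a mean of 6. Cardiac ion channels were called for the heart in 18 of 20 cases, with a median of -4.91. Kcnip2, a subunit of the transient outward channel, differed by -7.87 (standard error 0.36, adjusted p = 2.09e-05), and Hcn4, the pacemaker channel, by -6.23 (standard error 0.43, adjusted p = 7.97e-05). Kcnq1, whose potassium channel also serves epithelia, was at 9.84, 9.96 and 9.70 in the lungs and 10.06, 9.82 and 10.08 in the hearts, a difference of -0.15 (adjusted p = 0.497), and was not called, while its partner Kcne1 differed by -8.32 (adjusted p = 5.25e-05).

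Genes of the intercalated disc, which joins cardiomyocytes end to end, had 13 heart calls of 16 tested, with a median of -3.80. Among all tested genes 20.4% were called for the heart. Cdh2, the cadherin of this junction, was at 7.01, 6.85 and 6.84 in the lungs and 13.55, 13.76 and 13.77 in the hearts, a difference of -6.79 (standard error 0.17, adjusted p = 8.13e-06). Gja1, its main gap junction protein, differed by -3.58 (standard error 0.18, adjusted p = 3.01e-05). Gja5, a connexin of atria and of arterial endothelium, went the other way at 0.69 (standard error 0.20, adjusted p = 0.0247). Jup and Vcl, junction proteins that epithelia and most other cells use too, were not called, at -0.22 and -0.03.

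Cardiac transcription factors were called for the heart in 18 of 19 tested cases, beside 20.4% of all tested genes, with a median of -5.24. Nkx2-5, which directs cardiac development, was at 4.31, 3.19 and 2.86 in the lungs and 10.08, 10.18 and 10.96 in the hearts, a difference of -6.96 (standard error 0.46, adjusted p = 6.44e-05). Gata4, another early cardiac factor, differed by -6.87 (standard error 0.36, adjusted p = 3.23e-05) and Hand2, a factor of the ventricle, by -6.44 (standard error 0.36, adjusted p = 3.85e-05). The smallest called differences included Tbx5, a factor of limbs and lung mesenchyme as well, at -1.01 (standard error 0.18, adjusted p = 0.00324), and Mef2a, a factor of muscle and neurons, at -1.24 (standard error 0.18, adjusted p = 0.00141). Tbx5 was not called with libraries scaled to the sum without mitochondrial, 7SL and haemoglobin genes, at -0.40. Irx3 was not called, at 0.97 (adjusted p = 0.106), and Hand1 did not reach the detection filter.

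Genes of energy metabolism were mostly higher in the heart. The lists were again chosen with earlier results of these data known, so their counts are a description. Of 83 tested nuclear genes of the respiratory chain and ATP synthase, 79 were higher in the heart, 1 in the lung and 3 were not called, with a median of -3.19. Among all tested genes 20.4% were called for the heart and 29.5% for the lung. Complex I, which takes electrons from NADH, had 37 of 37 called for the heart, with differences from -3.98 for Ndufs6 to -1.29 for Ndufc2, and held 0.525% ± 0.0917 in the lungs and 2.35% ± 0.427 in the hearts of the protein-coding pool. Complexes II and III had 14 of 14 called, with a median of -3.42, and Cyc1, cytochrome c1, differed by -4.25 (standard error 0.15, adjusted p = 1.22e-05). In complex IV the single lung call was Cox4i2, an isoform known from lung and oxygen sensing, at 8.35, 8.48 and 8.44 in the lungs and 6.52, 6.39 and 6.91 in the hearts, a difference of 1.82 (standard error 0.24, adjusted p = 0.00101). The non-muscle subunits Cox6a1 and Cox8a, at -0.09 (adjusted p = 0.709) and -0.20 (adjusted p = 0.404), were called for the heart only with upper-quartile scaling, at -1.09 and -1.20, while their muscle forms Cox6a2 and Cox8b differed by -6.53 (adjusted p = 1.02e-05) and -6.02 (adjusted p = 9.01e-06). ATP synthase had 15 of 16 called, and held 0.514% ± 0.0759 in the lungs and 3.01% ± 0.426 in the hearts of the pool, with Atp5g2, whose mean stayed under 6 in both organs, the exception at -1.81 (adjusted p = 0.00958).

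The mitochondrially encoded partners of these subunits were higher in the heart as well. The 13 protein genes had 12 heart calls, with a median of -4.20, and held 2.95% ± 0.399 in the lungs and 23.3% ± 8.04 in the hearts of the protein-coding pool per length. The heart of mouse 2 was the highest, at 32.5%, against 19.8% and 17.6% in the hearts of mice 1 and 3. mt-Cytb, the cytochrome b of complex III, was at 13.39, 13.51 and 12.62 in the lungs and 17.24, 18.17 and 16.99 in the hearts, a difference of -4.29 (standard error 0.25, adjusted p = 4.17e-05). mt-Nd1, a complex I subunit, differed by -4.31 (standard error 0.27, adjusted p = 5.46e-05), and mt-Rnr2, the large mitochondrial ribosomal RNA, by -4.50 (standard error 0.50, adjusted p = 4.84e-04). The abundant heart genes also included Gm28437, at -4.13 (standard error 0.38, adjusted p = 2.37e-04), and Gm28661, at -4.17 (standard error 0.25, adjusted p = 5.00e-05), nuclear copies that were 100% identical to mt-Co3 over 783 bases and to mt-Co2 over 681 bases, so the split of reads between copy and original is uncertain. mt-Co3 alone was not called, at -2.62 (standard error 1.21, adjusted p = 0.105). Summed with Gm28437 it was at 16.03, 15.94 and 16.56 in the lungs and 20.10, 20.49 and 19.35 in the hearts, a difference of -3.80 ± 0.91 (SD, n = 3), and mt-Co3 took between 3.98% and 42.3% of that sum. mt-Co2 summed with Gm28661 differed by -4.11 ± 0.24 (SD, n = 3).

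Enzymes that feed the respiratory chain were higher in the heart. The citric acid cycle and pyruvate entry list had 23 of 23 called for the heart, beside 20.4% of all tested genes, with a median of -3.41. Got1, which moves reducing equivalents toward mitochondria, differed by -5.99 (standard error 0.26, adjusted p = 1.89e-05), and Cs, citrate synthase, by -4.10 (standard error 0.19, adjusted p = 2.31e-05). Of 30 genes of fatty acid uptake and oxidation, 28 were higher in the heart, with a median of -3.66. Fabp3, the muscle fatty acid-binding protein, was at 9.18, 8.71 and 9.49 in the lungs and 15.99, 15.74 and 16.23 in the hearts, a difference of -6.86 (standard error 0.16, adjusted p = 8.13e-06). Cpt1b, the muscle form of the enzyme that admits fatty acids to mitochondria, differed by -6.82 (standard error 0.18, adjusted p = 8.13e-06), while its other form Cpt1a was not called, at 0.51 (standard error 0.19, adjusted p = 0.0554), though it was called for the lung with all libraries at the same sum, at 0.93. Cd36, the fatty acid transporter, was at 14.65, 14.78 and 15.61 in the lungs and 15.53, 15.47 and 15.36 in the hearts. The ranges of the organs were close, and the difference of -0.44 (standard error 0.29, adjusted p = 0.225) was not called. Ketone and branched-chain oxidation had 14 of 14 called, led by Bdh1, which oxidises ketone bodies, at -4.92. Glycolysis had 15 of 18 heart calls and 1 lung call, Aldoc, an aldolase form, at 3.80 (standard error 0.62, adjusted p = 0.00244), and the median was -2.58. Among energy regulators, 14 of 15 were called, with Perm1, a muscle partner of the coactivator PGC-1, at -7.25 (standard error 0.23, adjusted p = 1.02e-05), Mb at -7.93 (standard error 0.18, adjusted p = 8.13e-06) and Ckmt2, the mitochondrial creatine kinase of muscle, at -7.36 (standard error 0.16, adjusted p = 8.13e-06).

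Further genes stood out by abundance or by the size of their difference with a mean of at least 6 in both organs. Inmt, a methyltransferase of small amines, was at 15.02, 14.97 and 15.59 in the lungs and 8.99, 9.25 and 8.39 in the hearts, a difference of 6.32 (standard error 0.30, adjusted p = 2.38e-05). Alcam, a cell adhesion molecule, was at 13.50, 13.51 and 14.08 in the lungs and 7.20, 7.28 and 6.78 in the hearts, a difference of 6.61 (standard error 0.25, adjusted p = 1.38e-05), and Aox3, an aldehyde oxidase, differed by 6.09 (standard error 0.22, adjusted p = 1.30e-05). Col4a3, a basement membrane collagen of alveoli and kidney, was at 12.74, 12.96 and 12.93 in the lungs and 7.21, 7.18 and 7.13 in the hearts, a difference of 5.70 (standard error 0.16, adjusted p = 8.52e-06). All 3 lungs exceeded all 3 hearts for each of them. Rnu1a1, a spliceosomal RNA, differed by 4.39 (standard error 0.57, adjusted p = 9.44e-04), but 24 other genes share its sequence at 95% identity or more. On the heart side, Fhl2, a LIM protein of cardiomyocytes, was at 6.79, 6.84 and 6.31 in the lungs and 15.19, 14.93 and 15.31 in the hearts, a difference of -8.50 (standard error 0.21, adjusted p = 8.13e-06), and Myl3 was at 7.73, 8.59 and 8.38 in the lungs and 16.90, 16.32 and 17.02 in the hearts, a difference of -8.51 (standard error 0.28, adjusted p = 1.10e-05). Of 40 named genes searched, 17 had a transcript of another gene at 95% identity over at least 150 bases, among them Myh6, which is 95.7% identical to Myh7, the slow myosin heavy chain, over 1822 bases.

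**Figure D4:**
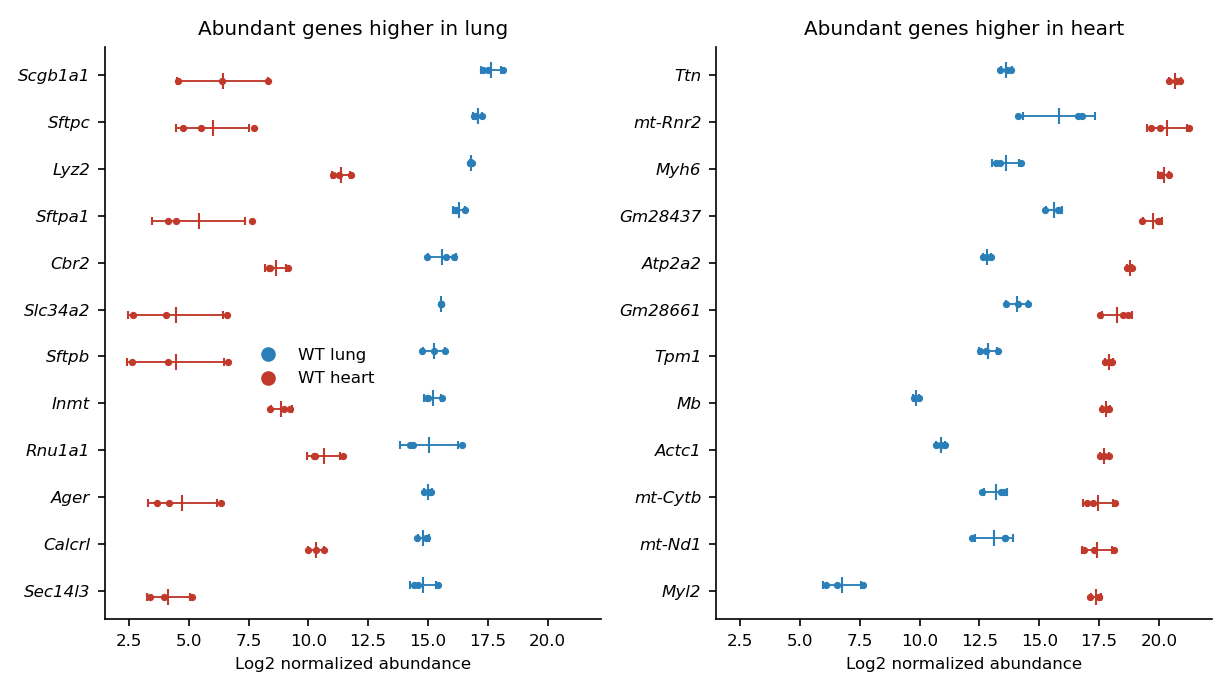
Deposited log2 values in each WT library of the genes named for abundance, with the mean and SD of each organ. Genes higher in the lung and genes higher in the heart are in separate panels. Among these abundant genes, Scgb1a1 had the largest lung-minus-heart difference, at 11.22, and Myl2 the most negative, at -10.61.

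Many of these differences were between related forms. In 40 pairs of related genes, a form known to be prominent in heart or muscle, here called the heart form, was set beside another form. Some heart forms, such as Cox4i1, Idh2, Gja1 and Npr1, are also widely used in other tissues. The heart form was called for the heart in 38, and in 38 its difference lay further toward the heart than that of the other form. The other form was called for the lung in 16 pairs, for the heart in 15 and in neither in 9. Over all tested genes, 29.5% were called for the lung and 20.4% for the heart. The pairs were hand-picked with earlier results of these data known, so these counts describe the choice and are no test. Some of these calls were not steady. Pfkfb2, a heart form that sets the pace of glycolysis, at -0.64 (standard error 0.18, adjusted p = 0.0217), was not called without mouse 1 or without mouse 2, and Prkaa1, an AMPK subunit counted for the lung at 0.60 (standard error 0.16, adjusted p = 0.0192), lost its call whichever mouse was left out. Because each share is taken within a library, scaling between libraries does not move it. In 24 pairs the heart form was under 50% of the pair per length in the lungs and over 50% in the hearts. In complex IV, Cox6a2 was 11.3% ± 2.12 in the lungs and 91.6% ± 1.18 in the hearts of its sum with Cox6a1 (SD, n = 3 here and for the pairs that follow). Rpl3l, the striated muscle form of ribosomal protein L3, was 0.743% ± 0.404 in the lungs and 81.9% ± 4.22 in the hearts, next to Rpl3. Cdh2 was 2.73% ± 0.374 in the lungs and 99.97% ± 0.0291 in the hearts of the sum with Cdh1, and Nkx2-5 2.16% ± 0.708 in the lungs and 99.97% ± 0.0579 in the hearts of the sum with Nkx2-1. In metabolism, Cpt1b was 14.2% ± 4.06 in the lungs and 96.2% ± 0.886 in the hearts of the sum with Cpt1a, Fabp3 30.2% ± 4.81 in the lungs and 99.4% ± 0.126 in the hearts with Fabp5, and Pgam2, a phosphoglycerate mutase, 16.3% ± 1.68 in the lungs and 90.5% ± 0.529 in the hearts with Pgam1. Actn2, the Z disc actinin, was 9.24% ± 4.83 in the lungs and 92.0% ± 0.448 in the hearts of the sum with Actn4. In 10 pairs the heart form was the larger in both organs, as for Idh2, the mitochondrial isocitrate dehydrogenase, at 70.6% ± 3.50 in the lungs and 98.5% ± 0.385 in the hearts, and in 6 the other form was. Cox8b stayed under 50% in the heart, at 1.19% ± 0.271 in the lungs and 40.3% ± 0.411 in the hearts, as did Eef1a2, the elongation factor of muscle and neurons, at 0.0190% ± 0.00810 in the lungs and 9.38% ± 3.73 in the hearts. The exceptions to the heart calls were Npr1, a natriuretic peptide receptor, called for the lung at 1.81 (standard error 0.16, adjusted p = 2.07e-04), and Prkag2, an AMPK subunit, at -0.28 (adjusted p = 0.547).

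**Figure D5:**
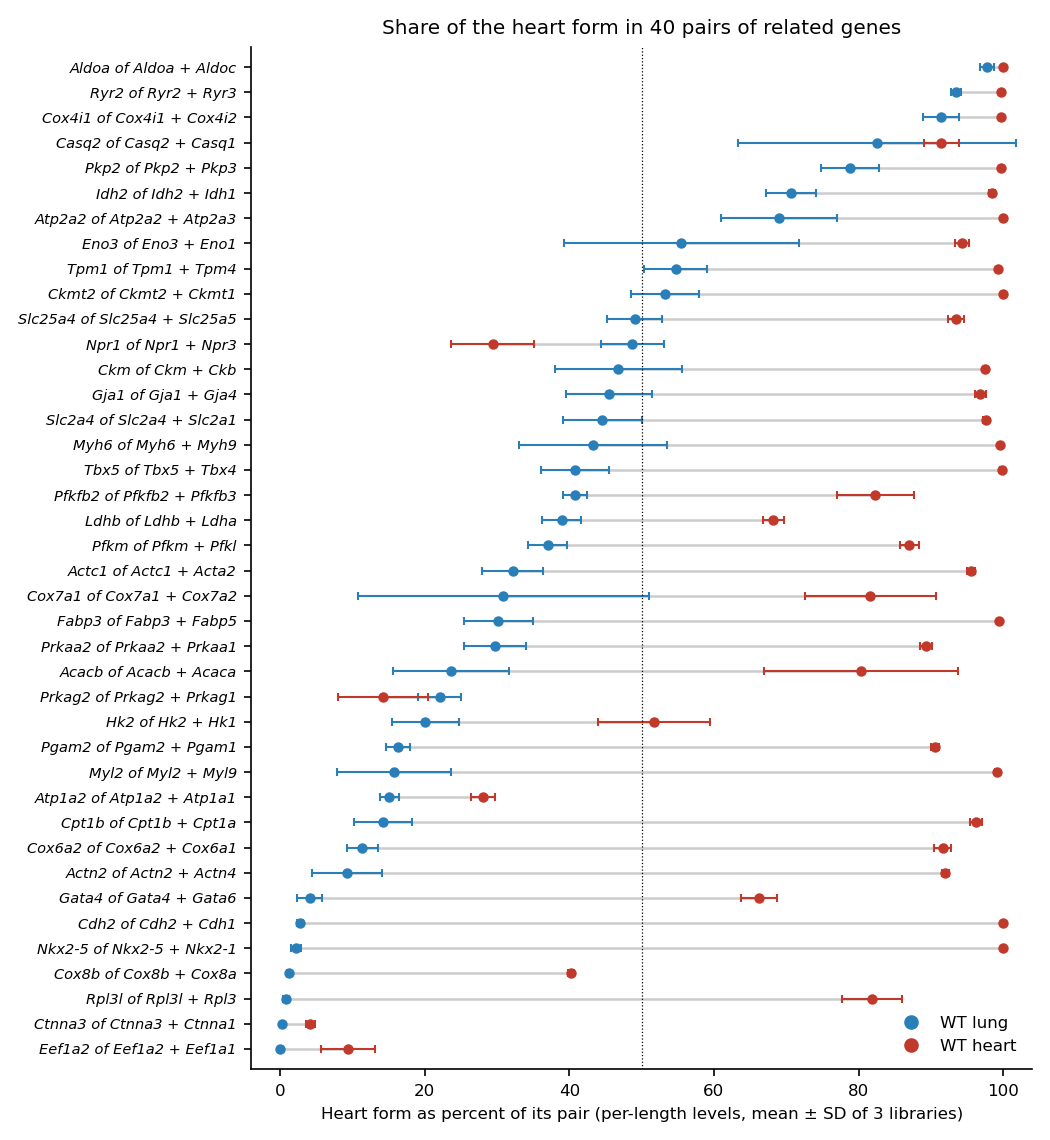
Share of the heart form in the per-length sum of each of 40 pairs, in percent, for the 3 lungs and the 3 hearts, with mean and SD. In 24 pairs the share passes from under 50% in the lungs to over 50% in the hearts, as for Cox6a2.

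Genes that all cells need differed little or in both directions, beside 29.5% lung and 20.4% heart calls among all tested genes. Cytosolic ribosomal protein genes had 8 lung calls, 1 heart call and 23 not called among 32, with a median of 0.39 that ranged from -0.62 to 1.0 over the alternatives and turned to the heart with upper-quartile scaling. The calls were not steady, with 4 for the lung without mouse 2 and 3 without mouse 3. The list held 3.75% ± 0.963 in the lungs and 1.60% ± 0.374 in the hearts of the protein-coding pool per length. Rps2 was the heart call at -1.30 (standard error 0.19, adjusted p = 0.00148), and Rpl3 differed by 1.30 (standard error 0.20, adjusted p = 0.00176). The general maintenance list had 5 lung and 10 heart calls of 23, with a median of -0.56 that turned to the lung under 1 scaling. Genes often used as references were among them: Gapdh, a glycolytic enzyme, was at 12.30, 12.13 and 11.45 in the lungs and 15.51, 15.70 and 15.79 in the hearts, a difference of -3.70 (standard error 0.25, adjusted p = 7.69e-05), and Actb, cytoplasmic actin, was at 16.08, 15.83 and 16 in the lungs and 13.89, 13.51 and 13.93 in the hearts, a difference of 2.19 (standard error 0.20, adjusted p = 2.15e-04). For 684 tested genes the 95% confidence interval of the difference, on the values as deposited, lay within 1.5-fold on either side of 0. Abundant ones were Rpl4, Hsp90b1, a chaperone, and Il6st, a cytokine receptor chain, with intervals of -0.32 to 0.49, -0.56 to 0.50 and -0.49 to 0.28. These intervals depend on the scaling. Same-sum, median-of-ratios and upper-quartile scaling moved the lung-minus-heart difference by 0.42, -0.23 and -1.01. The upper-quartile shift alone is larger than 1.5-fold. Whether these genes are equal under other scalings was not tested.

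Immune genes were mostly higher in the lung, with exceptions among macrophage genes. MHC class II genes, which present antigen, had 12 lung calls of 13, a median of 3.34 and 0.489% ± 0.0927 in the lungs and 0.0357% ± 0.0160 in the hearts of the protein-coding pool. Cd74, the invariant chain, was at 14.06, 13.90 and 13.48 in the lungs and 11.39, 10.16 and 10.78 in the hearts, a difference of 3.03 (standard error 0.25, adjusted p = 1.52e-04). MHC class I genes had 11 lung calls of 13 and a median of 2.07. Alveolar macrophage genes had 12 lung calls of 14, with Chil3, a chitinase-like protein, at 10.21 (standard error 0.26, adjusted p = 8.13e-06), while Cidec and Pparg, which adipocytes also express, were not called, at 0.80 and 0.27. Only 7 of the 14 were detected in at least 2 libraries of both organs, 5 of them called for the lung. The median of this list, 6.67, was 1.11 with detection asked of all 6 libraries. Among 17 genes of macrophages at large, 11 were higher in the lung and 5 in the heart. Lyz2, the lysozyme of myeloid and type 2 cells, differed by 5.42 (standard error 0.21, adjusted p = 1.58e-05), though its transcript is 95.3% identical to that of Lyz1 over 1272 bases. Ccr2, the receptor of recruited monocytes, differed by 4.0 (standard error 0.32, adjusted p = 1.33e-04). The heart calls were the complement genes C1qa, C1qb and C1qc and the resident macrophage genes Cd163 and Folr2. C1qb was at 7.97, 7.64 and 7.35 in the lungs and 9.82, 8.94 and 9.35 in the hearts, a difference of -1.71 (standard error 0.22, adjusted p = 9.26e-04), and Folr2 at 5.29, 5.38 and 5.52 in the lungs and 7.80, 7.62 and 7.68 in the hearts, a difference of -2.30 (standard error 0.27, adjusted p = 6.34e-04). Neutrophil genes had 7 lung calls of 9 tested, B cell genes 13 of 15 and T and NK cell genes 13 of 21, none of these 3 lists with more than 7 genes detected in both organs. S100a9, a calcium-binding protein of neutrophils, differed by 7.24 (standard error 0.67, adjusted p = 2.38e-04) and Igkc, the kappa light chain constant region, by 5.48 (standard error 0.35, adjusted p = 5.89e-05). Ebf1, a B cell factor that stromal cells also express, was higher in the heart, at -0.79 (standard error 0.24, adjusted p = 0.0284). Chemokines had 5 lung calls and 1 heart call, Pf4, of 20, beside 29.5% and 20.4% of all tested genes. Their median of 0.84 turned to the heart with upper-quartile scaling.

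Endothelial genes were shifted to the lung as a whole and split by organ type. The general list had 12 lung calls of 18, a median of 1.48 and no heart call, while Emcn and Flt1 were not called, at -0.11 and 0.36. Lung capillary genes had 17 lung calls of 18, with a median of 3.47. Calcrl, the adrenomedullin receptor, was at 14.53, 14.96 and 14.91 in the lungs and 10.32, 10.66 and 9.98 in the hearts, a difference of 4.48 (standard error 0.20, adjusted p = 2.01e-05). Tmem100, an endothelial membrane protein, differed by 6.0 (standard error 0.23, adjusted p = 1.56e-05), Ace, the angiotensin-converting enzyme, by 3.37 (standard error 0.17, adjusted p = 2.89e-05) and Hpgd, which breaks down prostaglandins, by 5.56 (standard error 0.21, adjusted p = 1.48e-05). Of 14 genes of heart endothelium and endocardium, 4 were higher in the heart and 5 in the lung, beside 20.4% and 29.5% of all tested genes. The median of this list, 0.09, changed sign under 5 alternatives. The heart calls were Tcf15 at -5.06 (standard error 0.50, adjusted p = 3.10e-04), a factor linked to fatty acid uptake, Btnl9 at -4.60 (standard error 0.34, adjusted p = 9.88e-05), the fatty acid-binding protein Fabp4 at -2.73 (standard error 0.34, adjusted p = 7.72e-04) and the glycerol channel Aqp7 at -5.48 (standard error 0.33, adjusted p = 4.64e-05). Fabp4 and Aqp7 are also adipocyte genes, and adipocyte values varied between hearts, as described below.

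Stromal genes went both ways, beside 29.5% lung and 20.4% heart calls among all tested genes. The fibroblast and elastic fibre counts were near these shares and set neither list apart. Fibroblast and collagen genes had 6 lung and 4 heart calls of 17, with a median of -0.05 that ranged from -1.06 to 0.56. Npnt and Col13a1, genes of alveolar fibroblasts and, for Npnt, also of type 1 cells, differed by 5.18 (standard error 0.21, adjusted p = 1.69e-05) and 5.02 (standard error 0.64, adjusted p = 8.60e-04). Lum and Dcn, small proteoglycans that organise collagen, were higher in the heart, at -3.30 (standard error 0.28, adjusted p = 1.68e-04) and -2.28 (standard error 0.21, adjusted p = 2.37e-04), as was Col15a1, a basement membrane collagen of muscle, at -3.57 (standard error 0.22, adjusted p = 5.00e-05). Elastic fibre genes had 4 lung and 2 heart calls of 13, with a median of 0.16 that changed sign under 5 alternatives, and Eln, elastin itself, was not called, at 0.16 (standard error 0.36, adjusted p = 0.710). Mfap4 and Lox, which assemble and cross-link elastic fibres, were higher in the lung, at 3.24 (standard error 0.20, adjusted p = 5.50e-05) and 3.17 (standard error 0.20, adjusted p = 5.68e-05). Smooth muscle and pericyte genes had 6 calls in each direction, and their median of 0.05 changed sign under 4 alternatives. Hhip, an inhibitor of hedgehog signals, was higher in the lung at 7.21 (standard error 0.29, adjusted p = 1.61e-05), and the pericyte genes Rgs5 and Kcnj8, a channel subunit, in the heart at -4.27 (standard error 0.24, adjusted p = 3.88e-05) and -2.64 (standard error 0.20, adjusted p = 1.12e-04). Mesothelial genes had 7 lung calls of 9 tested.

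Genes of tissues that adjoin the organs, and of blood, varied between animals. Among all tested genes the shares called were 29.5% for the lung and 20.4% for the heart. The skeletal muscle, adipocyte and cartilage counts were near or below these shares and set none of these lists apart. Skeletal muscle genes had 1 lung and 2 heart calls of 9 tested, and 0 lung calls without mouse 2. The lung call, the fast troponin Tnnt3, still differed by 2.65 without that mouse (adjusted p = 0.00550), but neither organ then reached a mean of 6. Red blood cell genes had 5 lung calls of 8 tested, and 0 without mouse 2. All 8 remained above 0 on the lung side without it, with a median of 0.72 against 0.92 in all mice, and Hbb-bs was at 0.86 (adjusted p = 0.0701). Adipocyte genes had 1 lung and 2 heart calls of 11, and 6 heart calls without mouse 3. Ucp1, the heat-producing protein of brown fat, was at 7.95, 4.75 and 8.98 in the lungs and 11.61, 9.21 and 4.58 in the hearts, a difference of -1.24 (adjusted p = 0.531) that was not called. Their medians of 0.05, 0.92 and 0.27 each changed sign under at least 1 alternative. Thymus genes had 4 lung calls of 5 tested, the median turning to the heart when detection was asked of all 6 libraries, and Rag1, a recombinase of immature lymphocytes, was at 0, 0 and 5.69 in the lungs and 0, 0 and 0 in the hearts. The cartilage list had 1 call in each direction of 5 tested genes, the thyroid and oesophagus list 1 in each direction of 4, and the nerve list 2 heart calls of 6. Dbh, which makes noradrenaline, was at 0, 0 and 0 in the lungs and 6.80, 6.77 and 7.27 in the hearts and was at least 38.4-fold higher in the heart by the floor of 3 counts.

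Adam19, the gene targeted in the KO mice, was not called between the WT organs. It was at 9.14, 9.41 and 9.12 in the lungs and 9.17, 9.25 and 10.27 in the hearts, with the heart of mouse 3 the highest, and the difference was -0.34 (standard error 0.29, adjusted p = 0.338). It was called for the heart only with upper-quartile scaling, at -1.34. In the KO mice it was 3.72 ± 0.65 in the lungs and 6.42 ± 0.36 in the hearts (SD, n = 3), below every WT library of the same organ. The paper states that exons ahead of the insertion appear more expressed in KO than in WT organs. These gene-level values therefore do not describe every part of the transcript. Among 16 tested genes of shedding proteases, the growth factors they release and their receptors, 8 were higher in the lung and 1 in the heart. The shares over all tested genes were 29.5% and 20.4%. The list median of 0.79 turned to the heart with upper-quartile scaling. The lung count was 5 without mouse 1 or without mouse 2. Adam8, a protease of leukocytes, differed by 4.50 (standard error 0.35, adjusted p = 1.23e-04), Nrg1, a neuregulin ligand, by 1.68 (standard error 0.45, adjusted p = 0.0185) and Egfr by 1.42 (standard error 0.19, adjusted p = 0.00106). Erbb4, the neuregulin receptor of cardiomyocytes, was at 5.51, 5.69 and 5.76 in the lungs and 10.78, 11.34 and 10.57 in the hearts. The hearts were all above the lungs, and the difference was -5.24 (standard error 0.24, adjusted p = 2.14e-05).

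The organ contrast in the KO mice shares no sample with that in the WT mice. There 5169 of 16802 tested genes were higher in the lung (30.8%) and 3735 in the heart (22.2%). Of the WT lung calls, 4321 were lung calls in the KO mice, which was 88.1% of the WT list and 83.6% of the KO list. Of the WT heart calls, 3084 were heart calls, 90.9% and 82.6%, and 1 gene in each direction was called the opposite way. Across 16308 genes tested in both, the differences had a Pearson r of 0.962, given as a description since genes are not independent replicates, and their median absolute difference was 0.29. The type 2 list had a median of 9.44 in the KO mice beside 9.55 in the WT mice, the thick filament list -6.99 beside -6.78, and complex I -3.43 beside -3.18. The test of the difference itself, KO minus WT over 17666 genes in limma with mouse as a block, called 2 genes (0.0113%), Gm10095 and Gm2296, and 1386 had an unadjusted p under 0.05. Neither was called without the mouse block, at an adjusted p of 0.599 and 0.623. For Gm10095, annotated as a processed pseudogene, the WT lungs gave 0, 8.95 and 0 and the WT hearts 0, 9.56 and 0, while the KO lungs gave 8.94, 9.60 and 7.93 and every KO heart 0. Its transcript is 97.9% identical to that of Rpl21, a ribosomal protein gene, so its reads cannot be assigned with certainty. The next genes, Cyfip2, Cd300lg and Morf4l1-ps1, did not pass, at an adjusted p of 0.142.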

How the data were processed

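RNA of whole lung and heart, 1 library per organ and mouse, was made into stranded total RNA libraries. Per the labels, the authors used cutadapt, STAR, Salmon and limma 3.42.2 with build mm39. The deposited gene values are on a log2 scale, log2(1 + estimated count) plus a constant per library, between -0.29 and 0.80 in the WT libraries, as read from genes with 1 transcript. How the authors set these constants and joined transcripts into genes is not given in the sources used here. The deposited table holds 55679 genes, and precision follows from the estimated counts per library given above. No column was left unmatched to a sample.

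The test designs were written for counts. As the values are log2, limma 3.58.1 (R 4.3.3, lmFit and eBayes with a variance trend) was used on the values as deposited, with mouse as a block, for genes at 3.46 or more, the log2 of 1 + 10, in at least 3 of 6 libraries. Organs of 1 mouse are paired by the labels' identifiers. Deviations of same-numbered samples correlated at 0.06, 0.16 and -0.04. P-values rest on the spread of the lung-minus-heart difference between these animals, with each gene's variance drawn toward a trend over all genes. With 3 pairs an exact sign-flip test cannot go below 0.25. On simulated data for this contrast of 16636 genes, 172 of 200 changed genes were recovered, 72 of 100 at 2-fold and 100 of 100 at 4-fold, with 9 false calls. The simulation gave all genes 1 common spread with normal noise and changed only these 200, drawn from the more abundant genes. In the data 49.9% of genes were called, and spreads differed between genes. The recovery and the false calls therefore do not carry over to the real contrast.

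Members, lists and pairs were chosen with earlier results of these data known: 49 hand-written lists with 794 genes, of which 752 were tested, and 40 pairs. Genes are named as list or pair members, as the 12 most abundant genes per direction past 16-fold, as the 8 largest differences per direction with a mean of at least 6 in both organs, as Adam19 and as the top 5 of the genotype test. Genes chosen after their values were seen are Myh8, Hbb-bs and Ucp1 for libraries that stood apart, and the abundant genes with narrow intervals. Per-length shares divide estimated counts by transcript length within protein-coding genes. Copies were sought at 95% identity over at least 150 bases. Promoters are from RefSeq, GRCm38.p6, 300 bases, the first listed per gene, found for 11971 of 16636 tested genes (72.0%). Gene coordinates are GRCm39. Tables were made with pandas 2.3.3 and numpy 2.4.6 in python 3.11.15 and plots with matplotlib 3.10.9. The alternatives were 6 other scalings, 2 other filters, a pseudocount of 8, no block, limma-voom, no trend, summed transcripts, all 12 libraries in 1 fit and each mouse left out.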

Additional observations from a re-analysis of the deposited data

Results flagged for a closer look

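The organ difference of 2 genes differed between the genotypes by a test of that difference (limma over the 6 mice with mouse as a block, Benjamini-Hochberg). For Gm10095 the lung-minus-heart difference was larger in KO than in WT mice by 9.03 (standard error 0.63, adjusted p = 0.00385). It was above 0 in 1 of 3 WT lungs, in the heart of that same mouse, in 3 of 3 KO lungs and in 0 of 3 KO hearts. For Gm2296 the difference was 7.76 (standard error 0.56, adjusted p = 0.00385), with 0, 8.29 and 0 in the WT lungs, 0, 8.68 and 0 in the WT hearts, 7.55, 7.73 and 7.60 in the KO lungs and 0 in the KO hearts. WT mouse 2 held both genes in both organs and the other WT mice in neither. Gm10095 kept its call without any 1 mouse, at adjusted p from 0.0227 to 0.0473, whereas Gm2296 lost it without KO mouse 3, at adjusted p = 0.0573. No other gene was called.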

How the results depend on the processing

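Scaling between libraries was the main limit, with no outside standard used here. Upper-quartile scaling gave 2121 lung and 7446 heart calls, and scaling to the sum without mitochondrial, 7SL and haemoglobin genes gave 7836 and 2131. The remaining settings stayed within 1.5 times the counts of 4902 and 3393, with 4106 to 4935 lung and 2870 to 3654 heart calls when 1 mouse was left out. Without the mouse block the counts were 4945 and 3413, and 8178 of the 8295 calls (98.6%) were kept. No call turned to the other organ in any alternative apart from 1 gene with summed transcripts. Of the 1332 genes at least 16-fold apart, 1219 kept their call in every alternative other than detection in all 6 libraries, and 474 also there. The 35 genes named for abundance or size kept their calls in every alternative that tested them, which detection in all 6 libraries did not do for Slc34a2, Sftpb and Sec14l3. Of 49 list medians, 35 kept their sign and 14 did not. Among the paired genes, Prkaa1 turned to -0.41 with upper-quartile scaling and lost its call in 6 other alternatives, and Pfkfb2 lost its call in 5. For the difference between genotypes, the fit without the replicate block called 1 gene, neither Gm10095 (adjusted p = 0.599) nor Gm2296 (adjusted p = 0.623), and leaving out 1 mouse gave 1 to 5 calls. The cause was not tested.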
